A study of Homo sapiens with 36 samples.

Results

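In DU145 cells depleted of the long isoform of PHF19 (PHF19L), binding sites of MTF2 were compared with stretches of H3K27me3, to find which MTF2 sites carried the mark, which did not, and where the mark lay without MTF2. Peaks of both replicates of a target that overlapped by at least 1 bp were joined, and a joined region was kept when it held a peak from each replicate. This gave 25341 regions, 3136 of MTF2 and 22205 of H3K27me3, of the 37431 regions made in the same way from all 14 peak lists of the series used here.

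DU145 is an established line of prostate cancer cells that came from a metastasis in the brain and grows in DMEM with fetal bovine serum. The depleted cells, shPHF19L#4, carried a lentiviral short hairpin RNA against PHF19L, and the control cells, shCTR, carried a control hairpin. Both were selected with puromycin. Each target was precipitated in 2 biological replicates with an antibody against MTF2 or H3K27me3, and fly chromatin with an antibody against the fly histone H2Av was added as a spike-in. A single hairpin was used for these lists, so the depletion and any other effect of that hairpin cannot be told apart.

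H3K27me3 is the repressive histone mark placed by the Polycomb complex PRC2, whose enzyme is EZH2 and whose core subunits include SUZ12. One form of the complex, PRC2.1, holds PHF1, MTF2 or PHF19, the Polycomb-like proteins, and MTF2 is known to bind unmethylated DNA rich in CpG dinucleotides. In differentiated cells the mark covers many promoters of developmental regulators that are kept silent.

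The sequences shown are one stretch from the region of highest replicate 2 score in each MTF2 class, and from the region ranked 2, not the highest, for the mark without MTF2. They are shown because CpG content differed widely between the classes. Each is the + strand of GRCh37 (hg19), the capitals mark CpG dinucleotides, and the stretch is the centre of the longest part covered by both replicates, or the nearest one outside annotated exons. The HOXB8 stretch, at chr17:46695004-46695203, lies upstream of HOXB8 and inside an intron of a long HOXB7 transcript, in an MTF2 region with H3K27me3. The NAV2 stretch, at chr11:19735509-19735708, lies in an intron of NAV2, 344 bp from the centre, in an MTF2 region without H3K27me3. The ENDOV stretch, at chr17:78419286-78419485, is intergenic, downstream of ENDOV, in an H3K27me3 region without MTF2.
HOXB8: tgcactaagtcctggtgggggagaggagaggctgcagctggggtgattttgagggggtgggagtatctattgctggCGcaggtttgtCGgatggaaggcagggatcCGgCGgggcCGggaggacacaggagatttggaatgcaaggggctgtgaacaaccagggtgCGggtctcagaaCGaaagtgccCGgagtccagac
NAV2: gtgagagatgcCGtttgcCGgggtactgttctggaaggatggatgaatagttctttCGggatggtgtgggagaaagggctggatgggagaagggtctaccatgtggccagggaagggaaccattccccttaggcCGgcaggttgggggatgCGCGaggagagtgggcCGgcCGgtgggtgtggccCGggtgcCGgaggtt
ENDOV: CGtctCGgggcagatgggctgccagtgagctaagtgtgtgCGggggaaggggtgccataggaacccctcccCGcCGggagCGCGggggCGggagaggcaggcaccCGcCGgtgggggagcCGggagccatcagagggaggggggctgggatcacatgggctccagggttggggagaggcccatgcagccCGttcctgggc
They hold 8, 10 and 12 CpG dinucleotides. In the central 200 bp of all regions, the median was 9 CpG in MTF2 regions with the mark, 11 in MTF2 regions without it and 1 in H3K27me3 regions without MTF2. At least 10 CpG were present in 48.7%, 53.6% and 1.65% of these 3 classes, so the ENDOV stretch was far richer in CpG than most of its class.

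The 4 peak lists differed greatly in size. MTF2 had 4216 peaks in replicate 1 and 34623 in replicate 2, and H3K27me3 had 35128 and 57026. Of the MTF2 peaks of replicate 1, 79.9% were overlapped by a peak of replicate 2, but only 9.31% of those of replicate 2 met one of replicate 1, so the smaller list set which MTF2 regions were kept. For H3K27me3 these shares were 89.6% and 45.3%. The score of a peak is the MACS score deposited by the authors, from 50 upwards with many peaks at 3100, and the MTF2 list of replicate 1 holds positions alone. Sequencing depth is unknown, because read totals are absent from the lists. All results below are descriptions without a test, because regions are not replicates and 2 samples against 2 cannot give an exact permutation p below 0.333.

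MTF2 and the mark met at most MTF2 regions, while most of the marked genome had no MTF2. H3K27me3 covered 2692 of the 3136 MTF2 regions (85.8%), and 444 (14.2%) had no H3K27me3 region. In the other direction, MTF2 was present on 2464 of the 22205 H3K27me3 regions (11.1%), and 19741 (88.9%) had none. With each replicate taken alone, the mark lay on 76.2% of MTF2 peaks in replicate 1 and 59.3% in replicate 2, and MTF2 was missing from 91.8% and 74.0% of H3K27me3 peaks. Lists of different number gave 80.3% for MTF2 of replicate 1 with H3K27me3 of replicate 2, and 42.2% for the reverse. The share of MTF2 peaks with the mark thus varied with the lists, and most H3K27me3 peaks lacked MTF2 in every pairing. The MTF2 list of replicate 1 mattered most for these shares: without it, 44% of MTF2 regions had the mark, 19374 did not, and 59.8% of H3K27me3 regions had no MTF2. The number of MTF2 regions without the mark was 1142 without the MTF2 list of replicate 2 and 155 without the H3K27me3 list of replicate 1.

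Where both were present, MTF2 sat inside the mark. Of the 2692 MTF2 regions with the mark, 2002 (74.4%) lay wholly within 1 H3K27me3 region. The mark covered 84.1% of the total MTF2 length, 14 Mb, whereas MTF2 covered 10.0% of the total H3K27me3 length, 118 Mb. Within a marked region that held MTF2, a median of 60.4% of its length was covered by MTF2. Most such marked regions, 2262, held 1 MTF2 region, 202 held more, and the highest number was 11. Midpoints of overlapping pairs were a median of 1005.5 bp apart.

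**Figure D1:**
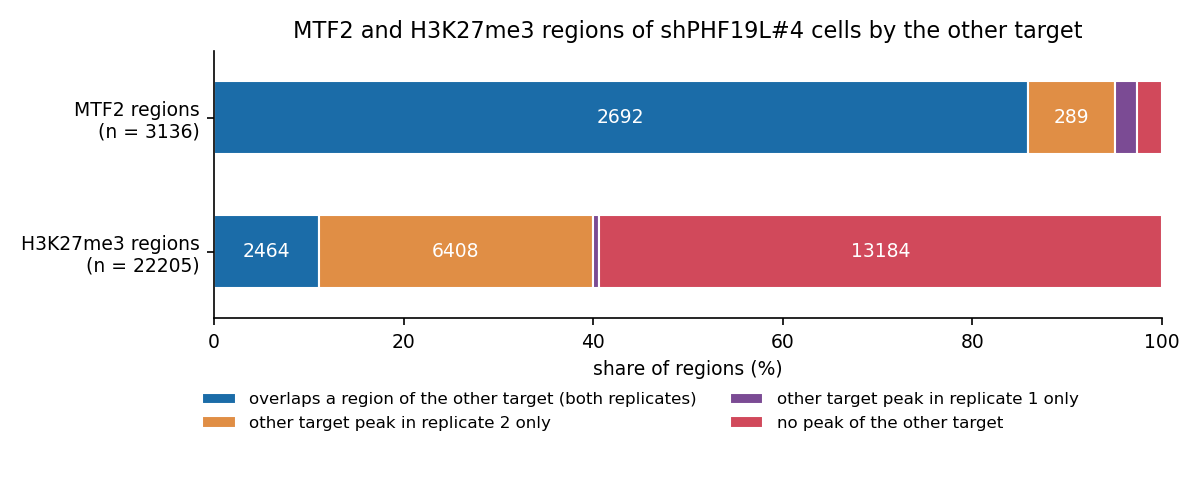
Share of MTF2 regions (n = 3136) and H3K27me3 regions (n = 22205) of shPHF19L#4 cells, in percent, by whether they overlap a region or a single-replicate peak of the other target. Of the MTF2 regions 2692 overlap a region of the mark and 289 a mark peak of replicate 2 alone, whereas 13184 of the H3K27me3 regions have no MTF2 peak at all.

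MTF2 regions with the mark were wider than those without it. The median width was 3848 bp with H3K27me3 (quartiles 2619 and 5536) and 3088 bp without (quartiles 2141 and 4693), a difference of 760 bp. Peaks of each replicate alone showed the same order, at 2257 against 1595 bp in replicate 1 and 1341 against 1083 bp in replicate 2. All 13 settings tried kept this order. The classes still overlapped widely, and the 95th percentile was higher without the mark (11345 bp) than with it (10047 bp). Widths themselves depended on the lists, since MTF2 regions had medians of 1338 and 1133 bp without replicate 1 of MTF2 and of 2349 and 1518 bp without replicate 2.

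The widest MTF2 regions with the mark lay over genes of transcription factors. The region over PAX2, a paired-box factor of kidney development, was 30875 bp wide, and those over the homeobox gene UNCX and the forkhead gene FOXF1 were 28553 and 28049 bp. PAX2 had a widest MTF2 peak of 20525 bp in replicate 1, an MTF2 score of 3100 in replicate 2, and H3K27me3 scores of 570 and 3100 in replicates 1 and 2 within the region. FOXF1 had no H3K27me3 peak of replicate 1 on its MTF2 region, and its mark scored 3190 in replicate 2. Without the mark, the widest MTF2 regions lay over RBFOX3 (23154 bp), a splicing factor of neurons, PAX5 (22855 bp), a factor of B cells, and NPAS3 (18758 bp), a transcription factor of the brain. RBFOX3, PAX5 and NPAS3 nevertheless had H3K27me3 peaks in replicate 2, with scores of 3100, 3052 and 97.9, and none in replicate 1.

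H3K27me3 regions that held MTF2 were wide. Their median width was 7576.5 bp, against 3391 bp for H3K27me3 regions without MTF2, and the order was the same with replicate 1 alone (5457 and 1655 bp) and replicate 2 alone (3573 and 1347 bp). With the marked regions split by width into 5 groups of 4441, the share with MTF2 rose from 1.42% of the narrowest group to 29.1% of the widest. How much of this follows from a wide region having more bases to overlap was not tested. Regions without MTF2 had medians of 1537 bp without replicate 1 of H3K27me3 and 1664 bp without replicate 2, both well below the 3391 bp of all lists.

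**Figure D2:**
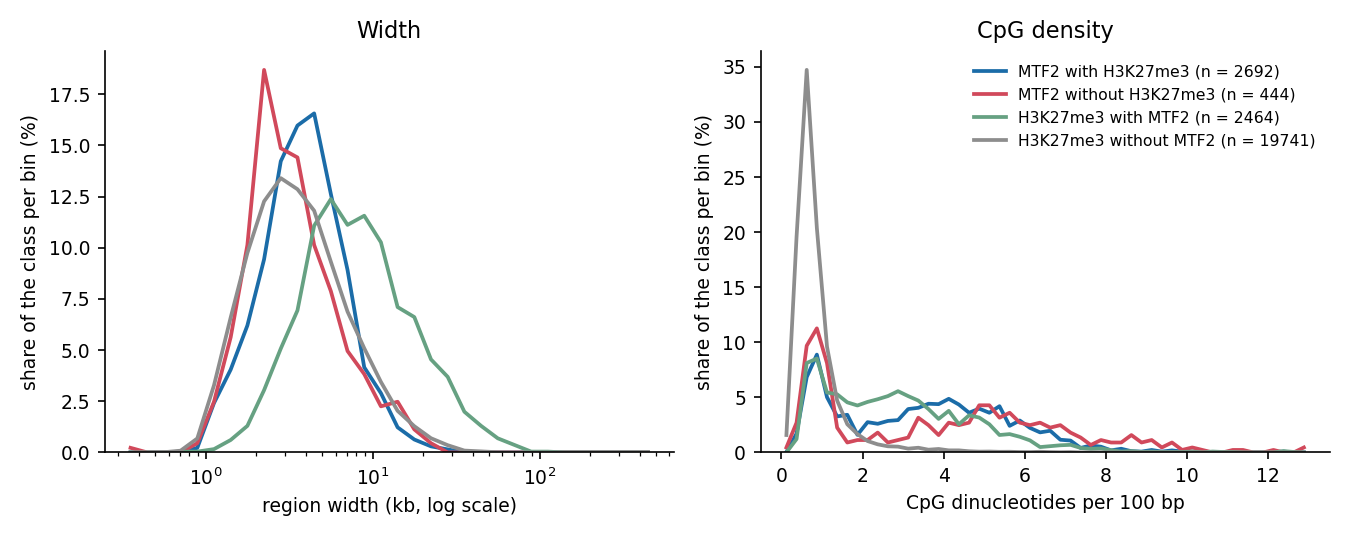
Distributions of region width (kb, log scale) and of CpG dinucleotides per 100 bp for the 4 classes, as the share of each class per bin in percent. H3K27me3 regions with MTF2 are shifted to larger widths (median 7576.5 bp), and H3K27me3 regions without MTF2 form a narrow peak of low CpG density (median 0.699 per 100 bp).

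MTF2 sites were richer in CpG than the rest of the mark. The median density was 3.50 CpG per 100 bp in MTF2 regions with H3K27me3, 4.0 in those without, 2.67 in H3K27me3 regions with MTF2 and 0.699 in H3K27me3 regions without MTF2. The whole genome held a mean of 0.985, and the upper quartile of the mark without MTF2 was 0.976, so most regions of this class lay below that mean. A median of regions and a mean of the genome are different measures, so the size of the gap between them was not read. The order of the classes held without replicate 1 of MTF2, with a smaller gap, at 1.21, 2.22, 1.11 and 0.625. Split by CpG density in the same way, 0.743% of the group of lowest density and 42.1% of the group of highest density held MTF2. This was a steeper rise than over the groups of width.

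Within MTF2 regions, the share with the mark was highest at intermediate CpG density and lower at both ends. From the lowest to the highest of 5 groups of density, 80.7%, 90.4%, 92.8%, 87.4% and 77.8% carried a region of the mark. The replicates of H3K27me3 differed at the upper end. Peaks of replicate 1 were found on 90.4% of the middle group and 76.6% of the highest, whereas peaks of replicate 2 were found on 99.7% and 97.8%. The drop at high CpG density was thus small in replicate 2, and the difference in density between MTF2 regions with and without the mark changed direction with the lists. The medians without replicate 1 of H3K27me3 were 3.66 with and 0.901 without the mark, and without replicate 2 of MTF2 they were 3.75 and 0.828.

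**Figure D3:**
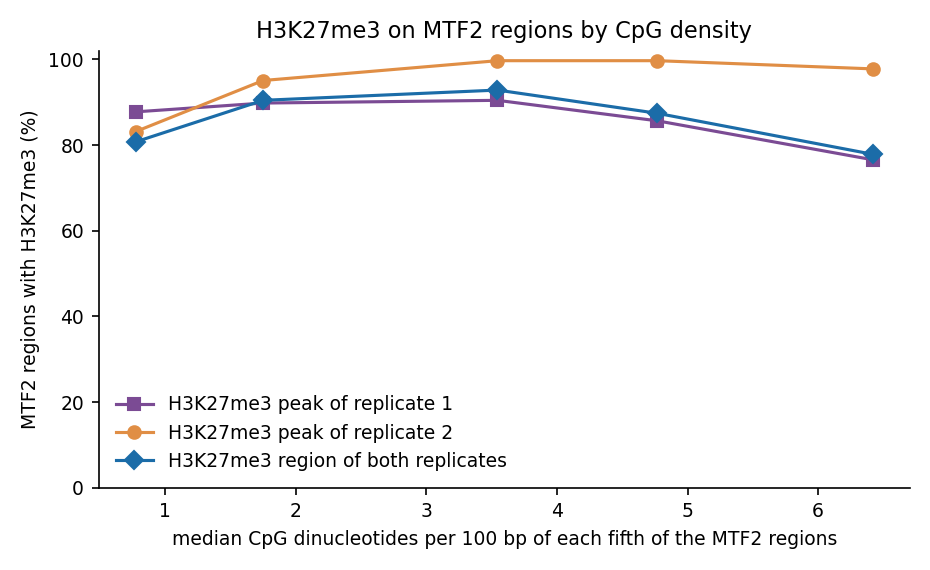
Percent of MTF2 regions that carry H3K27me3, in 5 groups of CpG density (x axis, median CpG dinucleotides per 100 bp of each group), for peaks of each H3K27me3 replicate and for regions of both. In the group of highest density, 76.6% have a peak of replicate 1 and 97.8% a peak of replicate 2.

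Regions of MTF2 from both replicates lay at promoters more often than the mark without MTF2 did. A region counted as a promoter region when it reached within 2.5 kb of a protein-coding start site, windows that make up 5.64% of the genome. That value is a share of bases, whereas the values below are shares of whole regions, which need only touch a window. The classes were therefore not read against it. Promoter regions made up 55.4% of MTF2 regions with the mark (1491), 49.5% of those without (220) and 9.66% of H3K27me3 regions without MTF2 (1907). The rest of the genes took 17.3%, 30% and 31.9% of these classes, and intergenic DNA 27.3%, 20.5% and 58.5%. Median distances to the nearest start site were 2110.5, 5729.5 and 54891 bp.

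The low promoter share of the mark without MTF2 held in each replicate, at 7.35% and 5.68%. The order of the MTF2 classes did not: in replicate 1, 47.0% of MTF2 peaks with the mark and 28.0% of those without were at promoters, and in replicate 2 the shares were 22.6% and 39.6%. Across the settings tried, the share was higher with the mark in 9 and higher without it in 5 of 14. Without replicate 1 of H3K27me3, 11.0% of the MTF2 regions without the mark were at promoters, close to the 9.38% of the mark without MTF2, and without replicate 2 of MTF2, 23%. Promoter share therefore did not set MTF2 with the mark apart from MTF2 without it in a stable direction.

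MTF2 at promoters had high CpG density and high scores in both classes. MTF2 regions with the mark had a median of 4.52 CpG per 100 bp and a median replicate 2 score of 3100 at promoters, and 1.40 and 706 away from them. For MTF2 without the mark these medians were 5.51 and 1792 at promoters, and 1.04 and 290 away from them. The contrast between promoter and other sites was thus larger than the contrast between marked and unmarked MTF2.

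The 5 MTF2 regions with the mark that scored highest in replicate 2 lay over start sites. These were HOXB8, a homeobox gene of body patterning, SYPL2, a membrane protein of muscle, UTS2R, the receptor of urotensin, VSNL1, a neuronal calcium sensor, and PTPN5, a tyrosine phosphatase of the brain. The HOXB8 region had an MTF2 peak of 4070 bp in replicate 1, an MTF2 score of 3233 in replicate 2 and H3K27me3 scores of 133 and 1337 in replicates 1 and 2. PTPN5 had an MTF2 peak of 2391 bp, an MTF2 score of 3216 and H3K27me3 scores of 206 and 2527. In both genes the mark was present in each list, with the higher score in replicate 2.

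Without the mark, the regions with the highest MTF2 scores were those of NAV2, which acts in the outgrowth of nerve cells, NEUROD2, a neuronal transcription factor, PAX9, a paired-box factor of tooth development, NTNG2, a netrin, and CDH22, a cadherin. NAV2 had an MTF2 peak of 3804 bp in replicate 1, an MTF2 score of 3214 in replicate 2, no H3K27me3 peak in replicate 1 and an H3K27me3 score of 359 in replicate 2. NEUROD2 had an MTF2 peak of 14232 bp, an MTF2 score of 3100, no H3K27me3 peak in replicate 1 and a score of 3100 in replicate 2. PAX9, NTNG2 and CDH22 had the same pattern, with H3K27me3 scores of 3100 in replicate 2 alone. These 5 regions were therefore marked in replicate 2 and lacked a peak in replicate 1. Ranks below NAV2 were ties at 3100 settled by the stretch covered by both replicates. Among the ties was an intergenic region 9707 bp from the start of TTLL10, with an MTF2 peak of 4009 bp in replicate 1 and no H3K27me3 peak in either replicate, picked after its values were seen.

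This held for most of the class. Of the 444 MTF2 regions without the mark, 289 (65.1%) had an H3K27me3 peak in replicate 2 alone, 73 (16.4%) in replicate 1 alone and 82 (18.5%) in neither. The 289 were promoter-rich (70.2%) and CpG-rich (5.09 per 100 bp), with a median MTF2 score of 1619. The 73 and the 82 were CpG-poor (0.860 and 0.962), with 2.74% and 18.3% at promoters and median MTF2 scores of 187 and 204. MTF2 without the mark was thus a mixture of strong promoter sites seen as marked in 1 replicate and weak sites mostly away from promoters.

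Most of these sites were also far from regions of the mark found in both replicates. The median distance from an MTF2 region without the mark to the nearest H3K27me3 region was 43944.5 bp. Within 5 kb of one lay 66 (14.9%), and 171 (38.5%) were over 100 kb away. These distances leave out H3K27me3 peaks of 1 replicate, which the 289 and the 73 regions overlapped.

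MTF2 without the mark was concentrated on chromosome 14. The stretch from 30 to 52 Mb, 0.770% of the called bases of the genome, held 88 of the 444 regions (19.8%) and 25 of the 2692 with the mark. NPAS3 alone was reached by 62 of the 88, EGLN3, a prolyl hydroxylase of the hypoxia response, by 4, and INSM2, MDGA2 and PAX9 by 1 each. The share of MTF2 regions with the mark was 50.2% on chromosome 14, and on the other autosomes it ran from 77.8% (chromosome 21) to 94% (chromosome 22).

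The concentration was strongest in replicate 1 lists. The stretch held 11.2% of the MTF2 peaks of shPHF19L#4 cells in replicate 1 and 0.924% in replicate 2. In shCTR cells it held 21.1% and 0.989% of MTF2 peaks, 33.0% and 0.485% of EZH2 peaks, and 41.8% and 0% of SUZ12 peaks in replicates 1 and 2. H3K27me3 of shPHF19L#4 cells was less concentrated, at 1.64% and 0.421%, and PHF19 of shCTR cells held 3.82% and 1.65% of its peaks there, above the stretch's share of the genome in both replicates. The 88 regions of the stretch had 5.68% at promoters, 0.843 CpG per 100 bp and a median MTF2 score of 181, whereas the 356 elsewhere had 60.4%, 4.86 and 1290. What sets the replicate 1 libraries apart in this stretch was not tested. Without the stretch, 88.2% of MTF2 regions carried the mark, and promoter share was 55.8% with and 60.4% without it, the reverse of the order with the stretch.

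Outside the stretch, 35 MTF2 regions had no H3K27me3 peak in any replicate. They held 3.73 CpG per 100 bp, and 13 (37.1%) were at promoters. Those with the highest MTF2 score over a start site were NALF2, an auxiliary factor of a sodium leak channel, TLE4, a corepressor of the Groucho family, ZKSCAN7, a zinc finger gene, and NALCN, that sodium leak channel. NALF2 had an MTF2 peak of 1421 bp in replicate 1 and an MTF2 score of 986 in replicate 2, and TLE4 had 2481 bp and 830. These genes were chosen after their values were seen. They were the clearest promoters with MTF2 and no peak of the mark.

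The mark without MTF2 was broad in number and mostly distal. Its highest H3K27me3 scores in replicate 2 were near RAD21, a cohesin subunit, ENDOV, an endonuclease, CPZ, a carboxypeptidase, RELN, a matrix protein that guides migrating neurons, and FRMPD1. RELN had H3K27me3 scores of 2011 and 3165 in replicates 1 and 2, no MTF2 peak in replicate 1 and an MTF2 score of 215 in replicate 2. ENDOV had H3K27me3 scores of 122 and 3199 and an MTF2 score of 972 in replicate 2. CPZ and FRMPD1 also had MTF2 peaks in replicate 2 alone, with scores of 847 and 2165. The widest regions of this class lay in an intron of TRPM3, a cation channel (62555 bp), near PPARGC1A, a coactivator of mitochondrial genes (53706 bp), and over the start of MAGI2, a synaptic scaffold (50001 bp). TRPM3 had H3K27me3 scores of 1517 and 2897 and no MTF2 peak in either replicate. It was the only one of the 8 named regions of this class without an MTF2 peak in replicate 2, where PPARGC1A, MAGI2 and RAD21 had scores of 643, 188 and 115.

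Some of these regions had an MTF2 peak in replicate 2. Of the 19741, 13184 (66.8%) had no MTF2 peak, 6408 (32.5%) had one in replicate 2 alone, 100 in replicate 1 alone, and 49 in both without a joined region meeting the mark. Where replicate 2 had a peak, its median score was 109, against 2008 in MTF2 regions with the mark. Regions behind the 2008 also needed a peak in the MTF2 list of replicate 1, and the median with the mark was 113 without that list. Marked regions with an MTF2 peak of replicate 2 alone then count as holding MTF2, so that setting leaves no contrast to compare. The 6408 were wider (5332.5 bp), richer in CpG (0.937 per 100 bp) and more often at promoters (17.6%) than the 13184 (2785 bp, 0.626 and 5.83%). How much of this follows from a wide region having more bases to overlap was not tested.

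Marked regions with higher scores held MTF2 more often. The score of a region was the highest of its peaks. Because the share with MTF2 also rose with width, and score and width were not separated, their parts cannot be told apart here. From the lowest to the highest of 5 groups of H3K27me3 score, the share with MTF2 went from 0.405% to 42.6% in replicate 2 and from 2.5% to 30.9% in replicate 1. Median H3K27me3 scores were 393 and 1939 in replicates 1 and 2 where MTF2 was present, and 119 and 321 where it was not. Across the 2692 MTF2 regions with the mark, MTF2 and H3K27me3 scores of replicate 2 had a Spearman correlation of 0.55, whereas MTF2 of replicate 2 and H3K27me3 of replicate 1 had -0.13 over the 2625 regions with a direct peak. Both values describe regions of the same libraries, and many MTF2 scores are tied at 3100. Over all 3136 MTF2 regions the MTF2 score of replicate 2 had a correlation of 0.59 with CpG density and 0.68 with width. The presence of MTF2 thus rose with the mark's score in both replicates, whereas among shared regions the scores rose together within replicate 2 and not in the 1 pair of different replicates that has scores.

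In shCTR cells, sites of the 3 classes differed in the Polycomb proteins already present. PHF19 peaks of shCTR cells lay on 23.5% and 63.3% of MTF2 regions with the mark in replicates 1 and 2, on 14% and 55.9% of those without, and on 0.289% and 9.13% of H3K27me3 regions without MTF2. EZH2 peaks lay on 23.9% and 36.6% with the mark and on 25% and 15.3% without it. SUZ12 peaks lay on 4.38% and 7.02% with the mark and on 16.9% and 2.25% without. PHF19 was thus more frequent on marked MTF2 in both replicates, while EZH2 and SUZ12 changed order between them. Without the chromosome 14 stretch, replicate 1 gave 12.6% for EZH2 and 3.09% for SUZ12 on MTF2 regions without the mark, both below the 23.4% and 3.82% on those with it. EZH2 was rare on the mark without MTF2, at 1.05% and 0.208%, and so was SUZ12, at 0.816% and 0.00507%, whereas PHF19 reached its 9.13% in replicate 2. The shCTR lists held 2060 and 1236 EZH2 peaks, 1523 and 232 SUZ12 peaks, and 14218 PHF19 peaks in replicate 2. Lists as small as those of EZH2 and SUZ12 can lie on only a limited share of the 19741 regions of this class.

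MTF2 itself had been present in shCTR cells at most MTF2 regions, with or without the mark, in replicate 2. MTF2 peaks of shCTR cells lay on 45.2% and 93.2% of MTF2 regions with the mark, on 32.9% and 84.2% of those without, and on 0.962% and 20.5% of H3K27me3 regions without MTF2. H3K27me3 peaks of shCTR cells lay on 92.3% and 84.9%, 52.5% and 45.5%, and 82.5% and 28.4% of the same classes. MTF2 sites that lacked the mark after depletion were thus also less often marked in control cells, in both replicates. Sorting the shCTR regions in the same way gave 1474 MTF2 regions, 86.5% with the mark, and 9256 H3K27me3 regions, 87.0% without MTF2. The median widths of the shCTR MTF2 regions were 3610 bp with and 2510 bp without the mark. These 2 shares and the order of the widths in shCTR cells were close to those after depletion. The promoter share of the mark without MTF2 was not, at 18.3% in shCTR cells against 9.66%. The H3K27me3 lists of shCTR cells held 39254 and 15994 peaks in replicates 1 and 2, against 35128 and 57026 after depletion. How far these sizes set that promoter share, or the 82.5% and 28.4% above, was not tested. The lists carry no spike-in scaling that would allow levels to be compared.

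**Figure D4:**
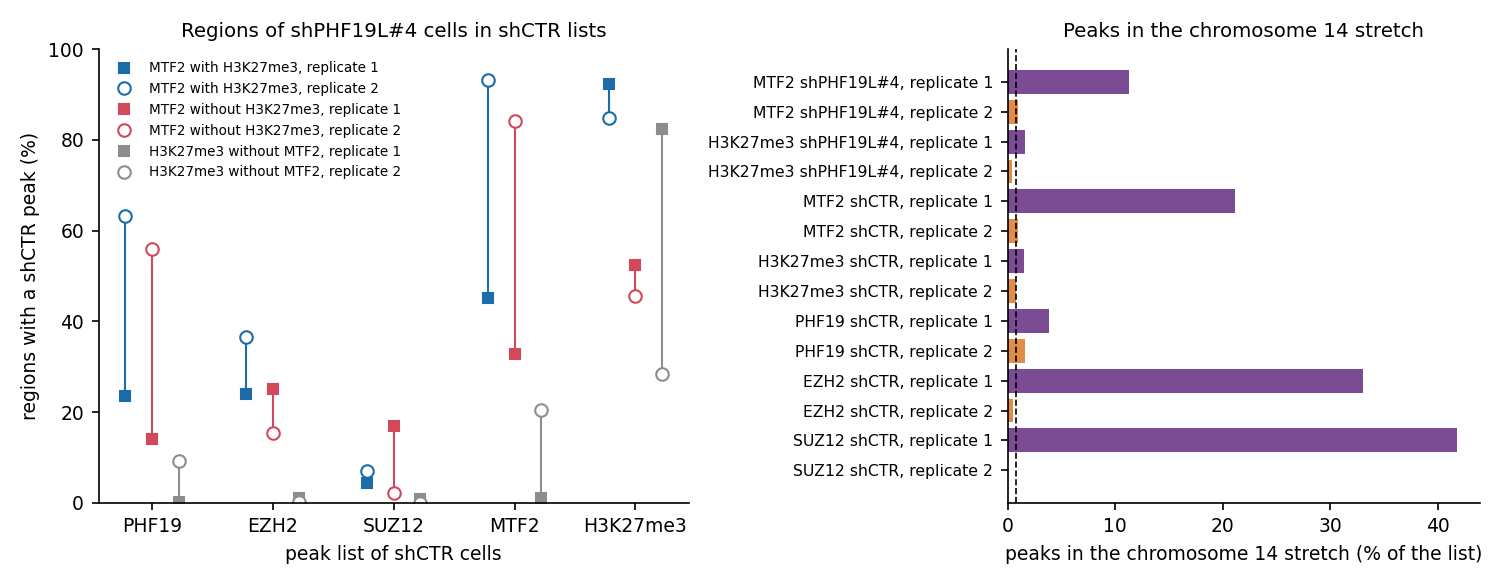
Left, percent of regions of each class in shPHF19L#4 cells that overlap a peak of shCTR cells, for each target and replicate (squares replicate 1, circles replicate 2). Right, percent of the peaks of each list in chromosome 14 from 30 to 52 Mb, with the stretch's 0.770% of the called genome as a dashed line; replicate 1 lists of SUZ12, EZH2 and MTF2 reach 41.8%, 33.0% and 21.1% in shCTR cells.

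Genes were sorted by the regions that reached them, from 2.5 kb upstream of the start to the end of the gene. Of 20163 protein-coding genes, 1738 (8.62%) had an MTF2 region with the mark, 239 (1.19%) had MTF2 regions without the mark only, and 1933 (9.59%) had H3K27me3 regions without MTF2 only. Of the 1977 genes with MTF2, 87.9% had it with the mark, and 45 had both kinds of MTF2 region. Among the 239, 52 held a marked region elsewhere in the gene. The region lay at a promoter for 86.4% of the genes with marked MTF2, 84.9% of those with unmarked MTF2 and 70.5% of those with the mark alone.

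The gene counts depended on 3 lists. Without replicate 1 of H3K27me3, 17 genes had MTF2 without the mark only and 3840 the mark without MTF2 only. The 3 classes held 3032, 7243 and 407 genes without replicate 1 of MTF2, and without replicate 2 of MTF2, 397 genes had unmarked MTF2 only. Each replicate alone gave 1711, 407 and 1998 genes in replicate 1 and 4512, 5763 and 871 in replicate 2. The number of genes with unmarked MTF2 was thus the least settled of the 3.

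Developmental regulators stood high among genes with marked MTF2. Against the 8.62% of all genes, 54 of 95 homeobox genes outside the HOX clusters had it (61 distinct regions). This list of 95 also held paired-box genes. Marked MTF2 was also found at 21 of 45 forkhead, 9 of 19 SOX, 4 of 6 GATA and 13 of 24 neural bHLH genes. VAX1, a homeobox gene of the forebrain and eye, PAX2, and PAX7, a regulator of muscle progenitors, had MTF2 peaks of 2981, 20525 and 17570 bp in replicate 1 and MTF2 scores of 3103, 3100 and 3100 in replicate 2. Over these 3 genes the highest H3K27me3 scores were 184, 1190 and 744 in replicate 1 and 1945, 3100 and 3100 in replicate 2. GATA3, a factor of T cells and breast epithelium, had an MTF2 peak of 14560 bp, an MTF2 score of 3100 and H3K27me3 scores of 524 and 3100. SOX14 had an MTF2 peak of 10250 bp, an MTF2 score of 3100 and H3K27me3 scores of 61.7 and 3001, so the mark over it was near the lower limit of the list in replicate 1. T-box genes were fewer, with 3 of 16, and so were HOX genes, with 6 of 39 in 5 distinct regions. These rose to 6 T-box genes (37.5%) and 15 HOX genes (38.5%) without replicate 1 of MTF2, while all genes rose to 15.0%.

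Unmarked MTF2 only was found in few genes of these families by number, yet in larger shares than the 1.19% of all genes for homeobox (4.21%), HOX (5.13%), T-box (6.25%) and neural bHLH genes (12.5%). From the homeobox list these were 4 genes (the paired-box gene PAX9, and NKX2-3, GBX2 and PRRX2). The neural bHLH list gave 3 (NEUROD2, NEUROG1 and ASCL2). The others were the T-box gene TBX21 and the HOX genes HOXC11 and HOXA11, and none was a forkhead, SOX or GATA gene. All 10 had an H3K27me3 peak in replicate 2 and none in replicate 1. NEUROG1, which starts neuronal differentiation, had an MTF2 peak of 3886 bp, an MTF2 score of 3100 and an H3K27me3 score of 3100 in replicate 2. GBX2, a homeobox gene of the midbrain and hindbrain boundary, had 3750 bp, 3100 and 1314. Both were picked after their values were seen. Without replicate 1 of H3K27me3, no homeobox, HOX, neural bHLH or T-box gene was left with unmarked MTF2 only, where 17 of all genes were. Without replicate 1 of MTF2, the shares were 20% for homeobox, 51.3% for HOX, 37.5% for T-box and 20.8% for neural bHLH genes, against 35.9% of all genes, so the larger shares did not hold for homeobox and neural bHLH genes. In replicate 2 alone the shares were 9.47%, 25.6%, 18.75% and 4.17% in the same order. All 4 were below the 28.6% of all genes, so the larger shares did not hold there for any of these families.

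Signalling ligands often had marked MTF2 as well. Of 19 WNT ligands, 11 had marked MTF2 (57.9%, against 8.62% of all genes), 2 (WNT5B and WNT16) unmarked MTF2 only (10.5%, against 1.19%) and 2 the mark alone (10.5%, against 9.59%). The larger share of unmarked MTF2 only depended on the lists. It was 21.1% without replicate 1 of MTF2, against 35.9% of all genes, and 0% in replicate 2 alone, against 28.6%. It was also 0% without replicate 1 of H3K27me3, against 0.0843%. Of 11 BMP ligands 5 had marked MTF2 (45.5%) and none the other kinds. WNT11 had an MTF2 peak of 7615 bp, an MTF2 score of 3100 and H3K27me3 scores of 254 and 3100. BMP4 had 5571 bp, 3100, 194 and 3100. Ephrins and Eph receptors had 7 of 22 with marked MTF2 (31.8%), and of 10 Frizzled receptors, which bind WNT ligands, only FZD8 had it. The 10% of receptors was close to the share of all genes, and it was 20% without replicate 1 of MTF2 and 50% in replicate 2 alone, where all genes were at 15.0% and 22.4%.

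Potassium channels often had marked MTF2, and a smaller share had the mark alone. Of 94, 35 (37.2%) had marked MTF2, 18 (19.1%) the mark alone and 1 (KCNS2, 1.06%) unmarked MTF2 only, against 8.62%, 9.59% and 1.19% of all genes. KCNJ6, an inward rectifier, had an MTF2 peak of 3736 bp, an MTF2 score of 3142 and H3K27me3 scores of 1545 and 1908, and it also held 42 H3K27me3 regions without MTF2. KCNK12, of the 2-pore channel family, had 6442 bp, 3100, 434 and 3100. The whole list held 178 distinct marked regions without MTF2. The mark alone depended on the MTF2 list of replicate 1: without it 51.1% of channels had marked MTF2, 25.5% unmarked MTF2 only and 1.06% the mark alone, against 15.0%, 35.9% and 2.02% of all genes. Replicate 2 alone left 4.26% of channels with the mark alone, against 4.32% of all genes.

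Olfactory receptor genes, which act in the nose and are silent in most other cells, were the clearest group with the mark alone. Of 399, 134 (33.6%) had H3K27me3 without MTF2 only, against 9.59% of all genes, in 213 distinct regions, and 5 had marked MTF2. Replicate 1 alone gave 140 (35.1%, against 9.91% of all genes) and replicate 2 alone 112 (28.1%, against 4.32%). The number was 74 without replicate 1 of MTF2 (18.5%, against 2.02%). Marked MTF2 rose from 5 to 48 olfactory receptor genes without that list, 12.0% against 15.0% of all genes. It rose to 50 in replicate 2 alone, 12.5% against 22.4% of all genes. Among those with the mark alone, OR3A2 had H3K27me3 scores of 1434 and 3100, no MTF2 peak in replicate 1 and an MTF2 score of 1032 in replicate 2. OR1N2 had 773 and 2482 with an MTF2 score of 964. Many of these genes lie in clusters and share regions.

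Zinc finger genes of the KRAB type and housekeeping genes seldom had marked MTF2. Of 476 zinc finger genes, 10 had marked MTF2, 2 unmarked MTF2 only and 18 the mark alone. Of 77 cytosolic ribosomal protein genes, 1 (RPL38) had marked MTF2 and 3 the mark alone, and of 75 mitochondrial ribosomal protein genes 4 had the mark alone. Proteasome subunits had 2 of 48 with marked MTF2 and 2 with the mark alone, translation initiation factors 1 and 3 of 47, and complex I subunits 4 of 37 with the mark alone. Shares of marked MTF2 in these lists, at most 4.17%, were below the 8.62% of all genes. The mark alone was also below the 9.59% of all genes in these lists, except for complex I subunits (10.8%). This order depended on the MTF2 list of replicate 1. With that list left out, the mark alone ran from 0% (mitochondrial ribosomal proteins) to 5.41% (complex I subunits), against 2.02% of all genes. Cytosolic ribosomal proteins were then also above all genes, and translation initiation factors and proteasome subunits slightly so. The zinc finger genes stayed below. Without replicate 1 of MTF2, unmarked MTF2 only was found at 35.9% of all genes, and the 6 lists ran from 27.3% (cytosolic ribosomal proteins) to 40.5% (complex I subunits).

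**Figure D5:**
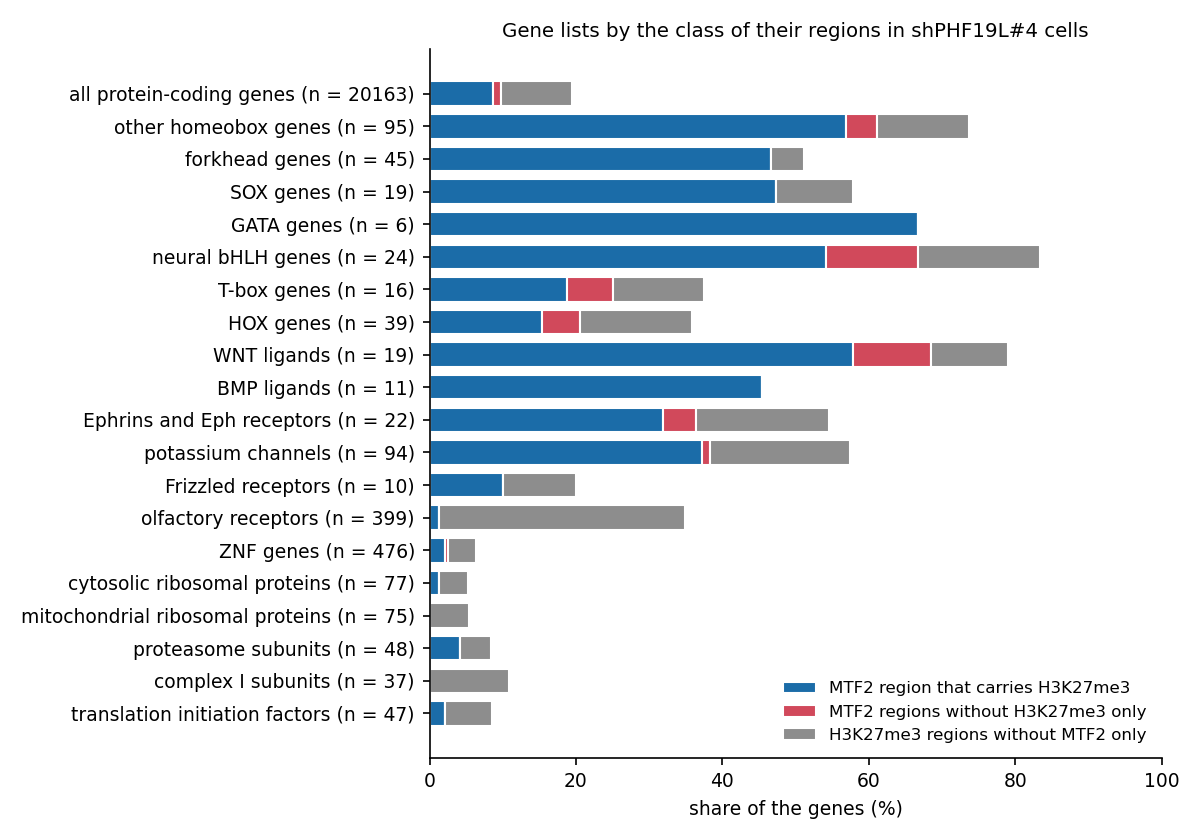
Percent of the genes of each list with an MTF2 region that carries H3K27me3, with MTF2 regions without H3K27me3 only, and with H3K27me3 regions without MTF2 only, for regions of both replicates in shPHF19L#4 cells. Homeobox, neural bHLH, WNT and GATA lists are led by marked MTF2, and olfactory receptors by the mark alone (33.6%).

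Genes of the Polycomb machinery mostly had no region of both replicates, like the 80.2% of all genes without one. None of the 6 PRC2 core genes, neither PRC2.2 accessory gene, and 1 of 5 PRC2.1 accessory genes had a region of any kind in both replicates. The exception was EPOP, a PRC2.1 subunit, with an MTF2 peak of 3879 bp in replicate 1, an MTF2 score of 3100 and H3K27me3 scores of 200 and 3100. Among PRC1 genes, CBX8, a subunit that binds the mark, had marked MTF2, with an MTF2 peak of 16083 bp, an MTF2 score of 3100 and H3K27me3 scores of 768 and 3100. BMI1 had unmarked MTF2 only, with 1349 bp, 1094, no H3K27me3 peak in replicate 1 and a score of 51.2 in replicate 2. RING1 had the mark alone, with an MTF2 peak in replicate 2 (score 2765) and none in replicate 1. CBX2 and PCGF1 had a marked region that met MTF2 outside the gene, and most other PRC1 genes had no region. This rested on the MTF2 list of replicate 1, since 65% of PRC1 genes had unmarked MTF2 only without it, against 35.9% of all genes, and 45% with replicate 2 alone, against 28.6%.

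Marker genes of the prostate and of other cells were checked in the same way. CDH1, the adhesion protein of epithelia, had unmarked MTF2 only, with an MTF2 peak of 2217 bp, an MTF2 score of 1421, no H3K27me3 peak in replicate 1 and a score of 586 in replicate 2. EPCAM, also epithelial, had no region of both replicates but similar peaks in replicate 2, with scores of 1431 for MTF2 and 315 for H3K27me3. KRT8 and KRT18 had no region. Among prostate markers, TMPRSS2 had marked MTF2 (4282 bp, 3100, 839 and 3100 in the same order), KLK2 and KLK3 had the mark alone, and FOLH1 had no region. The T cell gene CD3E had the mark alone, and PTPRC of blood, CDH5 of endothelium, VIM and CDH2 of mesenchyme, and COL1A1 and COL1A2 of fibroblasts had no region. COL1A1, like EPCAM, had peaks in replicate 2, with scores of 806 for MTF2 and 686 for H3K27me3. Peak lists hold no expression, so these genes say nothing of the identity of the cells by themselves.

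Checked next were 16 genes named by the study as PHF19L targets, browser examples, controls or, for CDKN1A, as upregulated after depletion. Of these, 10 (62.5%) had marked MTF2, 1 (6.25%) unmarked MTF2 only and 2 (12.5%) the mark alone. The shares of all genes were 8.62%, 1.19% and 9.59%. Among those with marked MTF2 were SHH, IGFBP3, WNT7A, BMP4, CXCR4, EGLN3, NDRG2, HEY1 and EPHB3. SHH, a ligand that patterns tissues, had an MTF2 peak of 7622 bp, an MTF2 score of 3100 and H3K27me3 scores of 819 and 3100. EPHB3, an Eph receptor, had 3014 bp, 1845, 61.8 and 988, the lowest MTF2 score among them. LOX, which crosslinks collagen, had unmarked MTF2 only, with 2383 bp, 3100, no H3K27me3 peak in replicate 1 and a score of 662 in replicate 2. ADM and SOX9 had the mark alone by the rule of both replicates, though MTF2 of replicate 2 had peaks with scores of 2742 and 1664 there. HMGA2, GATA2 and CDKN1A had no region. HMGA2 and GATA2 still had MTF2 peaks in replicate 2, with scores of 1788 and 382, and no H3K27me3 peak. The study picked these genes with these samples in view, so they are no independent evidence for any class.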

How the data were processed

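The authors mapped reads with Bowtie to hg19, keeping reads that map to 1 place and adding the fly genome dm3 for samples with spike-in, and called peaks with MACS in each replicate against its control. Tool versions were not given in the sources used here. The score of each peak was used as deposited by the authors, and the peak lists carry no spike-in scaling. The 14 peak lists of MTF2 and H3K27me3 in shPHF19L#4 cells and of 5 targets in shCTR cells were read. Starts of MTF2 replicate 1 were counted from 1. Not analysed here were the 5 DiffBind tables, which hold the authors' fold changes, P values, FDR and concentrations, the inputs, the RNA-seq, and PHF19, EZH2 and SUZ12 of shPHF19L#4 cells.

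Overlapping peaks of a target were joined, and regions with peaks of both replicates were kept. Regions of the 2 targets met when they shared at least 1 bp. Gene annotation was GENCODE release 44 in its GRCh37 version, with 20163 protein-coding genes. Promoters were windows of 2.5 kb before and after a start site, and genes were extended 2.5 kb upstream. CpG density was counted on the GRCh37 sequence of each region. The steps were tested on simulated intervals with known answers.

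Members and lists were chosen with earlier results of these data known. Regions were named as the 5 with the highest replicate 2 score in each class, with ties settled by the longest stretch covered by both replicates, and the 3 widest. Genes were named from those of the study, subunits of PRC2 and PRC1, cell type markers and gene families, and families by counts, with the members of highest replicate 2 MTF2 score as examples. Examples outside this rule are marked in the text as picked after their values were seen. PECAM1 had no match in the annotation. Some members of these lists are not reported here, and an example left out for this was replaced by the next member. Sequences were planned as the central 200 bp of the stretch shared by both replicates in the first region of each class outside chromosome 8, and the NAV2 window was moved to the nearest one outside exons.

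Alternatives left out each list, took regions of either replicate, asked for 50% overlap or a score of at least 100, joined marked peaks within 3 kb, or counted a region as without the other target only when no replicate had a peak. Others used autosomes, the width shared by both replicates, 1 kb promoters, 1 start site per gene, the promoter interval alone, all annotated genes, the central 500 bp, the mean score and either shCTR replicate. Leaving out chromosome 14 from 30 to 52 Mb was added after the data were seen. Python 3.11.15, numpy 2.4.6, scipy 1.17.1 and matplotlib 3.10.9 were used.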

Additional observations from a re-analysis of the deposited data

How the results depend on the processing

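These results rest on peak lists of 2 replicates of each target, with 1 hairpin and unknown depth, and the small MTF2 list of replicate 1 and the H3K27me3 list of replicate 1 decide most of what is kept. Peaks below the limit of MACS in one library count as absent, so a region without the mark is a region without a called peak. No paired test was run, because all results are descriptions, and lists of the same replicate were matched by number alone. Values within each replicate were given as descriptions too. For 36 results, 316 alternatives were run; 205 changed by less than the spread between replicates, or by less than 1.5 times for counts, and 111 by more. No result that could be recomputed moved when 50% overlap was required or when the autosomes alone, the promoter interval alone or the mean score were used. The cause of each change was not tested. Regions of either replicate and wider gene lists hold more members in total by construction, but a single class can shrink. Genes with the mark alone fell from 1933 to 902 with regions of either replicate.

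When each list was left out in turn, the lowest and highest values were 44.04% and 95.1% for MTF2 regions with the mark, 155 and 19374 for MTF2 regions without it, and 59.8% and 94.8% for H3K27me3 regions without MTF2. Median widths ran from 1338 to 3797 bp and from 1133 to 3271.5 bp for MTF2 with and without the mark. For H3K27me3 with and without MTF2 they ran from 5615 to 7627 bp and from 1537 to 3369 bp. Promoter shares ran from 20.1% to 56.8% and from 11% to 55.9% for MTF2 with and without the mark, and from 5.85% to 9.71% for the mark without MTF2. Genes ran from 1721 to 3032 with marked MTF2, from 17 to 7243 with unmarked MTF2 only, and from 407 to 3840 with the mark alone. CpG densities ran from 1.21 to 3.75 and from 0.828 to 4.42 for MTF2 with and without the mark, and from 1.11 to 2.9 and from 0.625 to 0.741 for the mark with and without MTF2. Peaks of both shCTR replicates lay on 3.05% to 16.6% (EZH2), 8.62% to 44.1% (MTF2) and 57.9% to 82.4% (H3K27me3) of MTF2 regions with the mark, and on 4.37% to 39.4% (H3K27me3) of those without. Median replicate 2 scores ran from 113 to 2051 for MTF2 regions with the mark and from 917 to 1921 for H3K27me3 regions with MTF2.

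With regions of either replicate, 60.2% of MTF2 regions had the mark, 14093 did not, and 74.5% of H3K27me3 regions had no MTF2. Widths were 1343 and 1089 bp for MTF2 with and without the mark and 3965 and 1365 bp for the mark with and without MTF2. Promoter shares were 22%, 39.6% and 5.54%, and genes were 4554, 5782 and 902 in the order above. CpG densities were 1.36, 2.12, 1.38 and 0.655. Peaks of both shCTR replicates lay on 2.3% (EZH2), 0.291% (SUZ12), 6.6% (MTF2) and 45.4% (H3K27me3) of MTF2 regions with the mark and on 0.49% (H3K27me3) of those without. Scores were 111 and 536.

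The spread between 2 replicates was wide for shCTR shares and scores, so some of the 205 changed by far more than 1.5 times. Without replicate 1 of MTF2, PHF19 peaks of both shCTR replicates lay on 4.41% of MTF2 regions with the mark (23% with all lists) and 0.542% of those without (13.06%), and MTF2 peaks on 0.733% of those without (26.4%). The median MTF2 score without the mark, 875 with all lists, ran from 74.4 to 1308 when lists were left out. The median H3K27me3 score of the mark without MTF2 was 321 with all lists and 127 without replicate 1 of H3K27me3.

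Where without meant no peak of either replicate, 82 MTF2 regions had no mark and 59.4% of H3K27me3 regions had no MTF2. Widths were 2587.5 bp for MTF2 without the mark, 5870 and 2785 bp for the mark with and without MTF2, promoter shares were 18.3% and 5.83%, and 15 and 639 genes had unmarked MTF2 only and the mark alone. Widths covered by both replicates were 2517.5, 2093, 6226 and 2042 bp. Joining marked peaks within 3 kb gave widths of 12957 and 6709 bp with and without MTF2 and a promoter share of 15.2% for the mark without MTF2. With scores of at least 100, the mark without MTF2 was 4716 bp wide, 59.7% of MTF2 regions without the mark were at promoters, and 412 genes had unmarked MTF2 only. For the mark without MTF2, the promoter share was 7.44% with 1 kb promoters and 7.05% with 1 start site per gene. All annotated genes gave 2781, 365 and 4838 genes. In the central 500 bp, CpG density was 5 for MTF2 without the mark and 0.6 for the mark without MTF2. Without chromosome 14 from 30 to 52 Mb, an alternative chosen after seeing the data, promoter share and CpG density of MTF2 without the mark were 60.4% and 4.86.

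With a peak of either shCTR replicate in place of both, the shares for MTF2 with the mark, MTF2 without it and the mark without MTF2 were 63.7%, 56.3% and 9.19% for PHF19 and 43.3%, 34.9% and 1.24% for EZH2. They were 9.21%, 18.7% and 0.821% for SUZ12, 94.1%, 90.8% and 21.0% for MTF2, and 96.2%, 67.3% and 84.0% for H3K27me3.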

Other observations

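HOX genes, which pattern the body axis, were split between the classes. Of 39, 6 had MTF2 with the mark, 2 MTF2 without the mark only, 6 the mark alone, 2 a marked region that met MTF2 outside the gene and 23 no region. The first 3 were 15.4%, 5.13% and 15.4%, against 8.62%, 1.19% and 9.59% of all genes. This split depended on 2 lists: the first 3 counts were 15, 20 and 0 without replicate 1 of MTF2, or 38.5%, 51.3% and 0% against 15.0%, 35.9% and 2.02% of all genes. They were 8, 0 and 16 without replicate 1 of H3K27me3, or 20.5%, 0% and 41.0% against 9.72%, 0.0843% and 19%. HOXD13 had an MTF2 peak of 4948 bp in replicate 1, an MTF2 score of 3100 in replicate 2 and H3K27me3 scores of 559 and 3100. HOXC11 had 2948 bp, 2575, no H3K27me3 peak in replicate 1 and a score of 1455 in replicate 2. HOXA13 had the mark alone, with H3K27me3 scores of 140 and 1641, and an MTF2 peak in replicate 2 alone, with a score of 2114. HOXC11 and HOXA13 were picked after their values were seen. HOXA4, HOXB1, HOXB4 and HOXD4 had no peak of either target in any replicate.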
